A study of Sus scrofa with 20 samples.

Results

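The genes described here are 6 lysosomal cathepsins, CTSA (ENSSSCG00000007431), CTSB (ENSSSCG00000023666), CTSC (ENSSSCG00000014924), CTSH (ENSSSCG00000001770), CTSL (ENSSSCG00000010948) and CTSS (ENSSSCG00000006648), and the lysosomal sialidase NEU1 (ENSSSCG00000001418), in testis tissue of boars. They were chosen by their Ensembl identifiers, with the differences between boars of high and low DFI (the DNA fragmentation index of sperm) already known, and they are 7 of the 21306 genes listed for both breeds. All 7 were found in the count files of all 20 boars and passed the filter on low counts in every fit. The groups were 5 Landrace boars (labelled Norsvin Landrace) with low DFI (0.62 to 1.7%) and 4 with high DFI (5.58 to 8.04%), and 5 Duroc boars with low DFI (1.05 to 1.13%) and 6 with high DFI (4.13 to 5.63%). DFI was measured on ejaculates with a dye, after an acid step that denatures sperm DNA where it is broken. It was calculated from the signal of denatured DNA relative to that of denatured and native DNA together. The boars were picked for extreme DFI. The values are those of the labels, which for some Landrace boars differ slightly from the list of animals in the study. No boar was treated, and the labels give no ages. Each library was made from the testis RNA of 1 boar, so the libraries of a group are separate animals. Boars are named here by breed, DFI group and replicate number, which is only a name.

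Lysosomes are acidic organelles in which proteins, glycans and lipids are broken down. CTSB, CTSC, CTSH, CTSL and CTSS are cysteine proteases of the papain family, whereas CTSA is a serine carboxypeptidase. CTSA also has a protective role: it holds NEU1, which removes terminal sialic acids from glycoproteins and glycolipids, and the beta-galactosidase GLB1 in a complex in which both enzymes are stable, and NEU1 depends on CTSA for its activity. In the testis, lysosomal enzymes are abundant in Sertoli cells, in the steroid-producing Leydig cells and in macrophages of the interstitium.

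Total counts were 18086448 in Landrace high 1, the shallowest library, and reached 51782156 in Landrace low 5. Normalization factors (TMM) lay between 0.958 and 1.099. Values below are CPM, read counts scaled to a common library size with these factors, which are not corrected for gene length, so they are compared between boars and not between genes. The smallest count of any of the 7 genes in any boar was 68, for CTSL in Duroc low 1. The labelled tissue was checked against its markers: 10 germ cell markers summed to 10653 to 18822 CPM, 5 Leydig cell markers to 793 to 11993 CPM and 5 Sertoli cell markers to 247 to 497 CPM. Of the Landrace boars, 6 carried sample numbers from a short run with gaps (2 low and all 4 high). The other 3 low Landrace boars and all Duroc boars carried numbers outside this run. What this numbering stands for is not stated.

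CTSA, the carboxypeptidase that protects NEU1, was measured at 21.4, 27.1, 27.7, 34.7 and 30.2 CPM in the 5 low DFI Landrace boars and at 35.1, 75.9, 49.6 and 38.8 CPM in the 4 high DFI boars. The Landrace groups did not overlap, although Landrace low 4 and Landrace high 1 were almost level. In Duroc the low DFI boars gave 24.9, 38.3, 21.5, 38.5 and 34.2 CPM, and the 6 high DFI boars ranged from 40.7 to 50.5 CPM with a median of 44.9. The Duroc groups did not overlap either, and the high DFI boars lay close together (coefficient of variation 8.79%, against 24.96% at low DFI).

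NEU1 was measured at 6.55, 6.45, 5.996, 12.8 and 10.24 CPM in low DFI Landrace and at 14.0, 23.3, 31.0 and 13.2 CPM in high DFI Landrace. The Landrace groups did not overlap, with the 4 high boars spread over a wide range. Low DFI Duroc gave 4.85, 9.92, 2.73, 14.4 and 10.01 CPM, and high DFI Duroc ranged from 10.17 to 22.5 CPM with a median of 16.9. Here the groups overlapped, since Duroc low 4 exceeded the lowest high DFI boar, and Duroc low 3 had the lowest NEU1 of all 20 boars.

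Among the cysteine cathepsins, CTSC, the dipeptidyl peptidase that activates granule serine proteases, was measured at 40.3, 43.8, 44.6, 60.3 and 48.9 CPM in low DFI Landrace and at 99.4, 218.8, 99.2 and 52.8 CPM in high DFI Landrace. Landrace high 4 lay below Landrace low 4, so these groups overlapped. Low DFI Duroc gave 12.4, 29.0, 10.18, 37.2 and 48.6 CPM, and high DFI Duroc ranged from 33.0 to 67.7 CPM with a median of 39.3. The highest Duroc boar was thus below 3 of the 4 high DFI Landrace boars, and the lowest Landrace boar was above the median of both Duroc groups.

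CTSL, an endopeptidase that in rodents is prominent in Sertoli cells, was measured at 3.70, 3.85, 4.25, 6.52 and 8.80 CPM in low DFI Landrace and at 7.02, 28.0, 8.32 and 8.62 CPM in high DFI Landrace. Landrace high 2 stood apart, with the other 3 high boars inside the range of the low ones. Low DFI Duroc gave 1.64, 4.25, 2.59, 4.53 and 4.41 CPM, and high DFI Duroc ranged from 3.76 to 8.91 CPM with a median of 4.61. The Duroc groups overlapped, and only Duroc high 3, the highest, exceeded every low DFI Landrace boar.

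CTSB, an endo- and exopeptidase, ranged from 50.3 to 88.2 CPM in low DFI Landrace, from 91.4 to 257.3 CPM in high DFI Landrace, from 38.0 to 112.2 CPM in low DFI Duroc and from 97.7 to 156.9 CPM in high DFI Duroc. CTSH, an aminopeptidase, ranged from 9.37 to 16.7, from 15.0 to 53.4, from 6.04 to 20.9 and from 21.8 to 31.6 CPM in the same order of groups. The high and low groups did not overlap for CTSB in Landrace and for CTSH in Duroc. CTSS, the cathepsin that trims the invariant chain of MHC class II in antigen-presenting cells, ranged from 3.55 to 8.40, from 6.34 to 25.4, from 3.36 to 9.74 and from 7.41 to 10.19 CPM, and its groups overlapped in both breeds. Landrace high 2 was the highest of all boars for each cathepsin, whereas the highest NEU1 was in Landrace high 3.

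**Figure D1:**
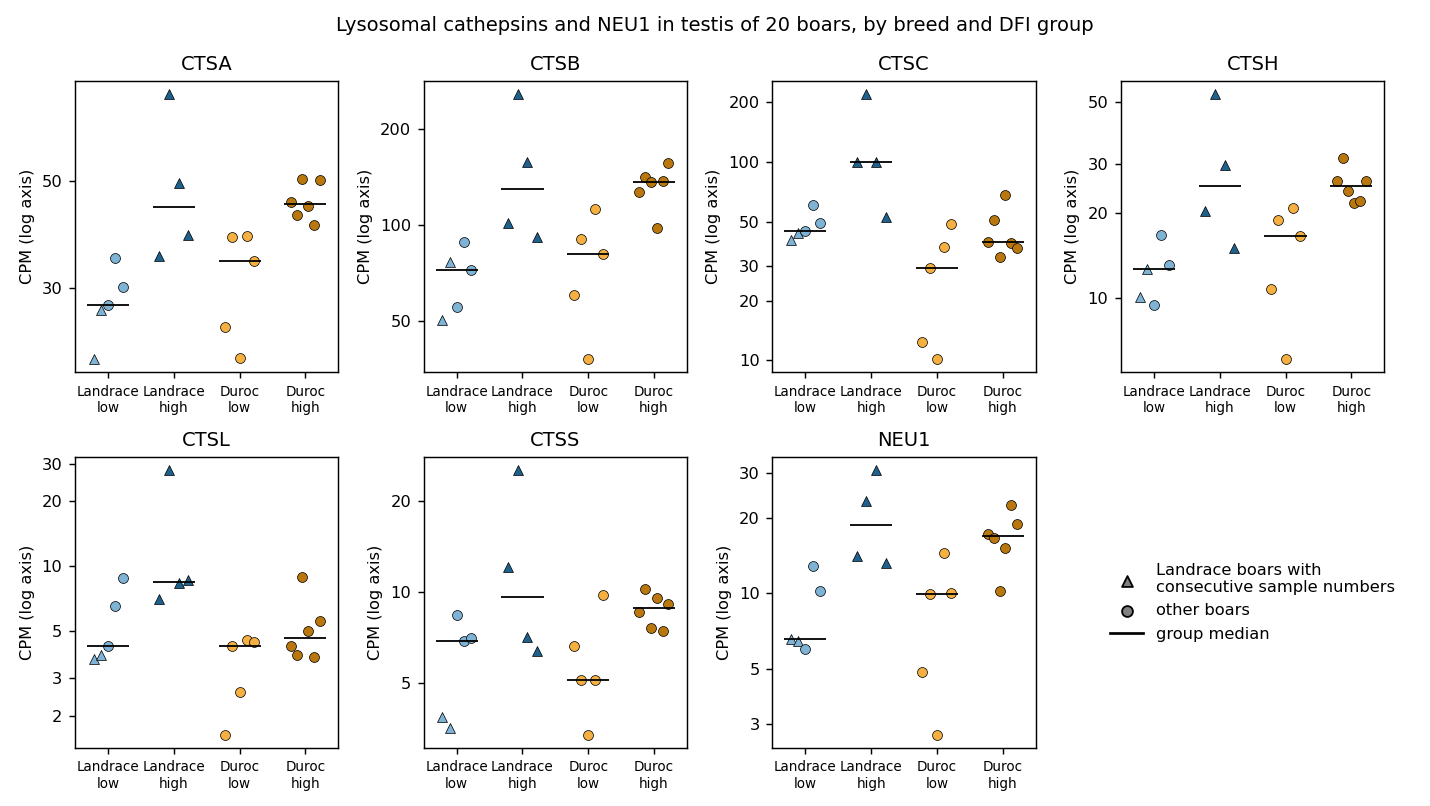
CPM (log axis) of the 7 genes in each of 20 boars, by breed and DFI group. Points are boars, triangles mark the 6 Landrace boars from the short run of sample numbers (called consecutive in the legend, though the run has gaps), and lines are group medians. Landrace high 2 is the top point for all 6 cathepsins (CTSL 28.0 CPM, against 8.62 CPM in the next of its group).

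The first comparison of the study was between high and low DFI within each breed. The 7 genes were chosen with these differences known, so the differences and the calls below are a description and no evidence about these genes. In bulk tissue fewer cells of a type and less RNA per cell cannot be told apart. In Landrace all 7 were higher at high DFI (47.3% of all genes were), with log2 fold changes of 0.82 (SE 0.21) for CTSA, 1.28 (SE 0.30) for NEU1, 1.15 (SE 0.28) for CTSB, 1.30 (SE 0.32) for CTSC, 1.26 (SE 0.32) for CTSH, 1.26 (SE 0.42) for CTSL and 1.097 (SE 0.41) for CTSS. The median was 1.26, against -0.01 over all 14519 genes tested. In Duroc all 7 were higher at high DFI too (51.8% of all genes were), with 0.53 (SE 0.15) for CTSA, 0.99 (SE 0.35) for NEU1, 0.79 (SE 0.22) for CTSB, 0.69 (SE 0.36) for CTSC, 0.78 (SE 0.26) for CTSH, 0.58 (SE 0.29) for CTSL and 0.54 (SE 0.22) for CTSS. The median was 0.69, against 0.01 over all 14666 genes tested. Within Landrace CTSA had the smallest difference, and NEU1 had the largest in Duroc.

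With edgeR's quasi-likelihood test none of the 7 passed an adjusted p of 0.05 in Landrace, where 0% of all genes did, and none in Duroc, where 0.0136% did. At an unadjusted p under 0.05 the counts were 7 of 7 in Landrace (16.6% of all genes) and 5 of 7 in Duroc (21.2%). With the likelihood ratio test that the study used, 7 passed the adjusted threshold in Landrace (5.28% of all genes) and 4 in Duroc (2.56%). The 4 in Duroc were CTSA, CTSB, CTSH and NEU1. High DFI boars lay wholly above low DFI boars for 3 genes in Landrace (CTSA, CTSB and NEU1, 4.6% of all genes) and for 2 in Duroc (CTSA and CTSH, 1.9%). These shares describe genes picked for these contrasts, and nothing is read from them.

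One boar carried much of the size of the Landrace differences. Without Landrace high 2 the median over the 7 genes was 0.77 in place of 1.26, CTSL was 0.56 in place of 1.26, CTSS was 0.51 in place of 1.097, CTSA 0.55 and CTSC 0.82, and 5 of 7 had an unadjusted p under 0.05. NEU1 stayed at 1.21. In Duroc CTSL was 0.36 in place of 0.58 without Duroc high 3. Within the 6 Landrace boars from the short run of sample numbers the differences were as large or larger, from 1.05 for CTSA to 1.79 for CTSL and CTSS, with 1.66 for NEU1. The difference in Duroc minus that in Landrace was negative for all 7 genes, from -0.28 (SE 0.50) for NEU1 to -0.68 (SE 0.54) for CTSL, with a median of -0.48. Without Landrace high 2 that median was -0.01.

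**Figure D2:**
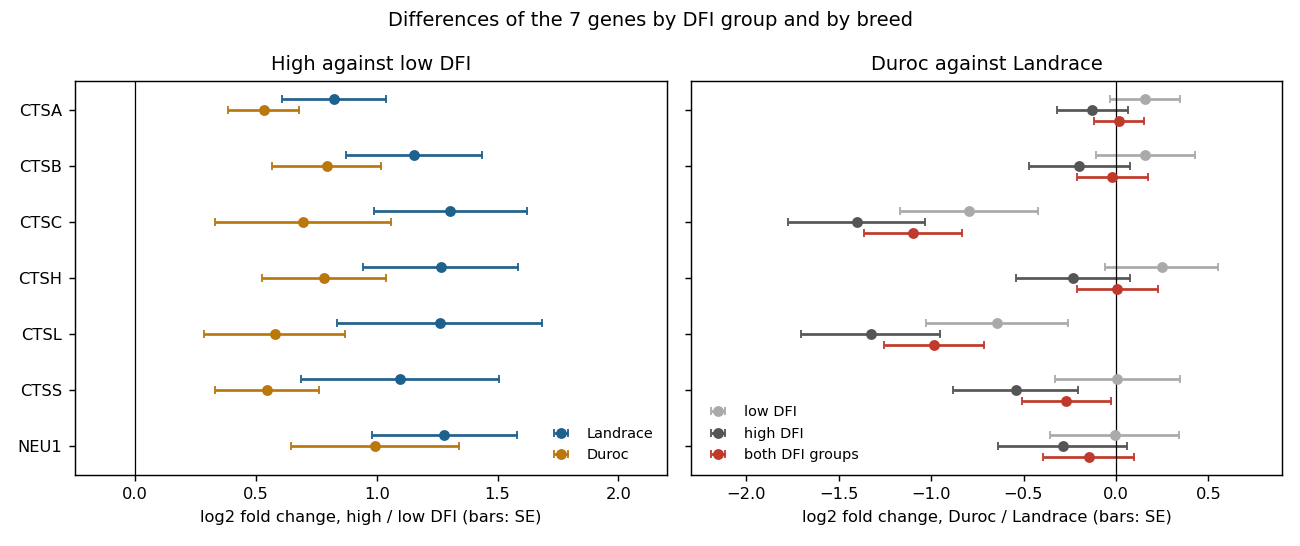
Log2 fold changes of the 7 genes, with standard errors as bars. Left, high against low DFI in each breed, all above 0 and in each gene larger in Landrace, where Landrace high 2 raised the median from 0.77 to 1.26. Right, Duroc against Landrace at low DFI, at high DFI and over both, where over both DFI groups CTSC and CTSL lie at -1.10 and -0.98 and the other 5 genes between -0.27 and 0.01.

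The genes were chosen with the differences between DFI groups known, not with the breed difference over both groups. The comparisons within 1 DFI group share the boars of the DFI contrasts, so a gene chosen for high values in high DFI Landrace tends to look lower in high DFI Duroc, and one with low values in low DFI Landrace tends to look higher in low DFI Duroc. The comparison over both DFI groups is the mean of those at low and at high DFI, so it is not fully free of that choice. In it CTSC and CTSL were lower in Duroc than in Landrace, whereas CTSA, CTSB, CTSH, CTSS and NEU1 did not pass the test. At low DFI alone neither CTSC nor CTSL passed. Over both DFI groups the log2 fold change was -1.10 (SE 0.26) for CTSC, or 0.467 times the Landrace level (edgeR quasi-likelihood test over 14636 genes, adjusted p = 0.00683). For CTSL it was -0.98 (SE 0.27), or 0.505 times the Landrace level (adjusted p = 0.0156). Thus 2 of 7 genes passed, against 18.4% of all genes tested. Exact permutation tests over all 52920 relabellings of breed within DFI groups gave two-sided p = 0.000529 for CTSC and p = 0.0030 for CTSL. For the other 5 genes the log2 fold changes ranged from -0.27 (SE 0.24) for CTSS to 0.01 (SE 0.13) for CTSA, with adjusted p from 0.472 to 0.988 in edgeR.

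The CTSL call rested on 1 animal. Without Landrace high 2 the breed difference of CTSL was -0.63 with an adjusted p of 0.0553 in edgeR, while that of CTSC was -0.85 with an adjusted p of 0.0224, the highest over the 20 fits that left out 1 boar each. At high DFI alone, in a comparison that is not independent of the choice of genes, the log2 fold changes were -1.40 (SE 0.37) for CTSC and -1.33 (SE 0.38) for CTSL, and edgeR called these 2 of 7 genes, against 5.73% of all genes. Nothing is read from these calls. Without Landrace high 2 the values were -0.91 and -0.62, and neither passed. Leaving out Duroc high 1, Duroc high 5 or Duroc high 6 also ended both calls, CTSC alone lost its call without Duroc high 3, and CTSL alone lost its call without Duroc high 2 or Duroc high 4.

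At low DFI none of the 7 passed the adjusted threshold in edgeR (4.92% of all genes did), with 1 at an unadjusted p under 0.05, namely CTSC (18.8% of all genes). CTSC differed by -0.79 (SE 0.37, adjusted p = 0.253) and CTSL by -0.64 (SE 0.38, adjusted p = 0.397). All 4 high DFI Landrace boars were from the short run of sample numbers and no Duroc boar was, so at high DFI breed and numbering cannot be told apart. The comparison over both DFI groups includes these boars, so breed and numbering are partly mixed there too. Between the 3 Landrace boars with other numbers and the 5 Duroc boars at low DFI, the differences were -0.90 for CTSC and -0.91 for CTSL, with adjusted p of 0.276 and 0.193 in edgeR. Neither passed.

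CTSZ, a cathepsin with carboxypeptidase activity that is not among the 7, went the other way between breeds: its log2 fold change was 0.74 (SE 0.10), with 12.5 to 17.8 CPM in low DFI Landrace, 13.6 to 22.9 CPM in high DFI Landrace, 21.7 to 33.8 CPM in low DFI Duroc and 27.2 to 34.3 CPM in high DFI Duroc (adjusted p = 6.2e-05 in edgeR). Of the 61 other lysosomal genes tested, only 3 passed in this comparison, 1 higher and 2 lower in Duroc, whereas 18.4% of all genes passed. The lower ones were MANBA, the lysosomal beta-mannosidase (-0.52, SE 0.14), and GNPTAB, a subunit of the transferase that starts the mannose 6-phosphate tag for sorting enzymes to the lysosome (-0.27, SE 0.06). PSAP, the precursor of the saposins, differed by 0.25 (SE 0.09, adjusted p = 0.0516) and GLB1 by -0.22 (SE 0.14, adjusted p = 0.296). Of the cell markers, the T cell gene CD2 (-0.32, SE 0.08) and the macrophage gene MRC1 (-0.34, SE 0.10) were lower in Duroc. The haemoglobin gene HBB was lower too (-2.76, SE 0.37), while 0 of 5 Leydig and 0 of 5 Sertoli cell markers passed. CD2 was the only T cell marker tested, of 5 listed. MRC1 was the only macrophage marker to pass: of the 8 tested 4 were higher in Duroc, with a median of 0.07. The part of blood and immune cells in the CTSC and CTSL differences was not tested.

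The question of whether the genes varied together was asked within groups. Each boar's log2 CPM was taken as a deviation from the mean of its own breed and DFI group, so that the differences by which the genes were chosen do not enter. Over the 20 boars all 21 pairs of genes were positively correlated, with Pearson's r from 0.30 for CTSS and NEU1 to 0.96 for CTSB and CTSH and a median of 0.69. In 15 pairs the permutation p, adjusted over the 21 pairs, was under 0.05, and with Spearman's rho in 13. Many such values are not rare in these libraries: of the 14635 other genes, 5.63% had an r with CTSA at least as high as NEU1. Among called pairs the share went from 0.00683% (r with CTSB at least as high as CTSH) to 6.75% (r with CTSL at least as high as CTSC). In pairs that were not called, 12.1% had an r with CTSB at least as high as CTSS, and 24.0% an r with CTSS at least as high as NEU1. The r was positive in all 21 pairs within Landrace (9 boars, median 0.76) and within Duroc (11 boars, median 0.62). For each pair the 2 boars farthest from the median of its first gene, in alphabetical order, were also left out. They were not the same boars for every pair, and the median r was then 0.48.

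CTSA and NEU1, the partners of the complex, had r = 0.69 (permutation p = 0.0074, adjusted p = 0.0194) and rho = 0.65 (permutation p = 0.016, adjusted p = 0.029) over 20 boars. Without the 2 boars with CTSA farthest from the median, Landrace high 2 and Landrace low 1, r was 0.79. It was 0.69 within Landrace, 0.74 within Duroc and 0.75 in the 14 boars outside the short run of sample numbers. Duroc low 3, at the lower end of both genes, counted most: without it r was 0.59 with an adjusted permutation p of 0.0591. The pair was not the closest for either gene. CTSA had r = 0.91 with CTSB and 0.89 with CTSH, and NEU1 had r = 0.79 with each of CTSH and CTSB. By its r with CTSA, NEU1 had rank 824 among all 14635 other genes.

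GLB1, the third enzyme of the complex, had r = 0.84 with CTSA (rank 136 of 14635) and 0.56 with NEU1 (rank 576). Its level ranged from 2.998 to 4.73 CPM in low and from 4.66 to 7.80 CPM in high DFI Landrace, and from 2.48 to 4.68 CPM in low and from 2.79 to 4.89 CPM in high DFI Duroc, with log2 fold changes of 0.62 (SE 0.19) and 0.25 (SE 0.18) between high and low DFI. The NEU1 level as a percent of the CTSA level was 29.4 ± 6.53 (SD, n = 5) in low and 41.8 ± 14.2 (SD, n = 4) in high DFI Landrace, and 24.97 ± 9.43 (SD, n = 5) in low and 37.3 ± 11.2 (SD, n = 6) in high DFI Duroc. Its ranges overlapped between all groups, and the breeds differed by -0.22 on the log2 scale (exact permutation p = 0.279). The ratio compares boars and is not a ratio of molecules.

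CTSB and CTSH formed the tightest pair, with r = 0.96, permutation p = 1e-05, which is the smallest that 100000 resamples can give, and an adjusted p of 0.00021. CTSH was the gene closest to CTSB among all 14635. CTSL followed CTSA (r = 0.84) more than it followed NEU1 (r = 0.38, adjusted permutation p = 0.151). CTSS stood aside: its median r with the other 6 genes was 0.54, and only its pair with CTSC passed (r = 0.67, adjusted permutation p = 0.0202). That r was 0.37 without Landrace high 2 and Duroc low 3. Without the same 2 boars the r of CTSS with CTSB, CTSH and NEU1 was -0.13, 0.01 and 0.01.

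**Figure D3:**
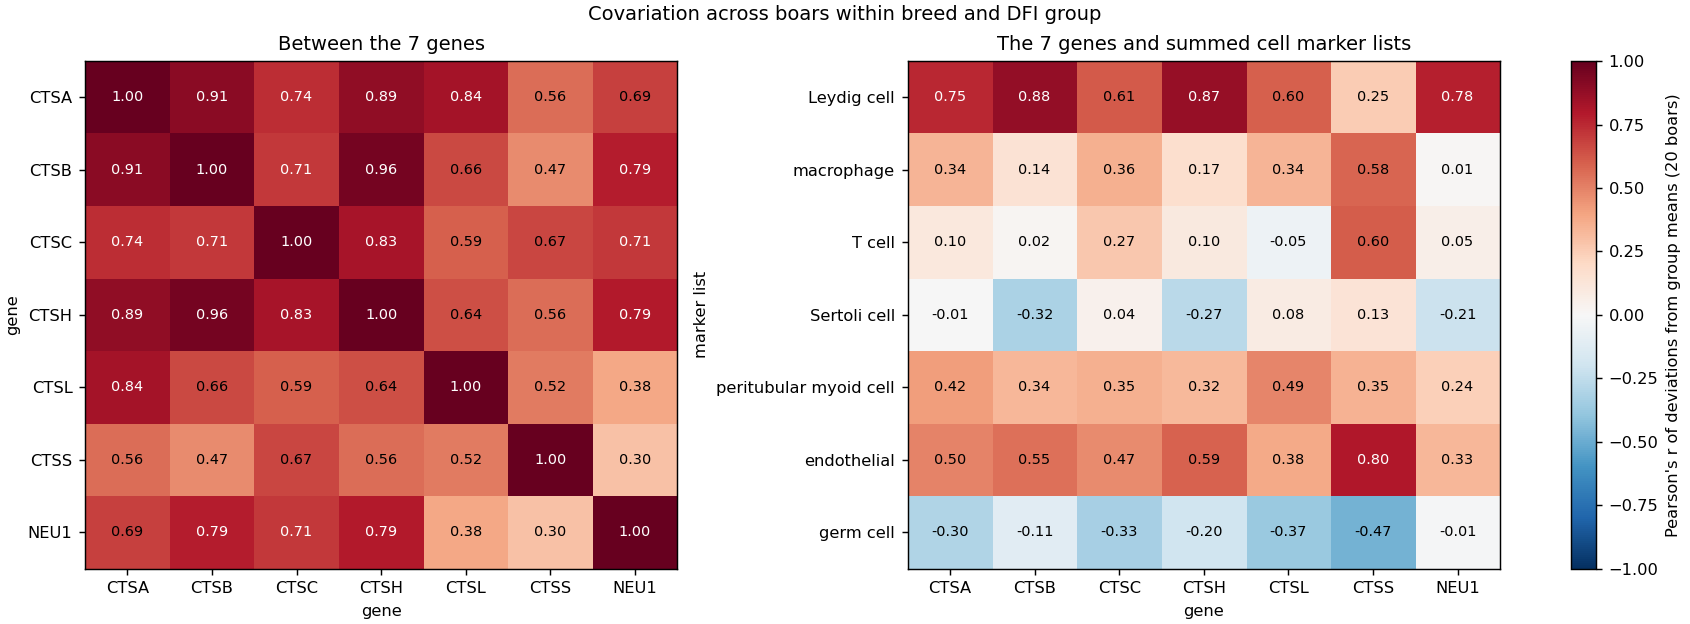
Pearson's r over 20 boars of deviations from the group means (log2 CPM), between the 7 genes (left) and between each gene and the summed level of marker lists for 7 cell types (right). Red is positive and blue negative. CTSB and CTSH have the strongest pair (0.96). Apart from CTSS (0.25), the Leydig cell row ranges from 0.60 for CTSL to 0.88 for CTSB, and CTSC and CTSL did not pass there. CTSS is highest for endothelial markers (0.80).

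The same deviations were compared with the summed CPM of markers for 7 cell types, which makes 49 relations. The 5 measured Leydig cell markers were CYP11A1, CYP17A1, INSL3, LHCGR and NR5A1, and their sum went with CTSB (r = 0.88, rho = 0.88, adjusted permutation p = 0.000245), CTSH (r = 0.87, rho = 0.88, adjusted permutation p = 0.000245), NEU1 (r = 0.78, rho = 0.66, adjusted permutation p = 0.0159) and CTSA (r = 0.75, rho = 0.78, adjusted permutation p = 0.0159). Without the 2 boars whose Leydig cell sum lay farthest from the median, these r values were 0.86, 0.82, 0.64 and 0.79. Within the breeds they ranged from 0.66 to 0.83 in Landrace and from 0.80 to 0.97 in Duroc. CTSC (r = 0.61, adjusted permutation p = 0.19) and CTSL (r = 0.60, adjusted permutation p = 0.0695) did not pass, and with Spearman's rho neither did NEU1 (adjusted permutation p = 0.0791). CYP17A1 and INSL3, at medians of 2238 and 1827 CPM, made up most of the sum. The share of all genes with such values was not counted for any marker list. These relations are therefore not read as particular to the 7 genes.

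CTSS showed another pattern. Its r was 0.25 with the Leydig cell list, but 0.80 with 3 endothelial markers (adjusted permutation p = 0.00261), 0.60 with 4 T cell markers (adjusted permutation p = 0.0193) and 0.58 with 8 macrophage markers (adjusted permutation p = 0.0864). Without the 2 boars farthest from the median of the list sum in question, the first 2 of these were 0.66 and 0.63, whereas that with macrophage markers was 0.38. The T cell sum was nearly all CD2 (median 9.53 CPM, with LCK next at 0.960 CPM) and the macrophage sum mostly MRC1 (median 54.3 CPM, with LAPTM5 next at 6.13 CPM), so each relation is largely that of 1 gene. The 3 genes closest to CTSS of all 14635 were HLA-DRA (r = 0.96) and SLA-DQB1 (r = 0.96), both MHC class II chains, and ENSSSCG00000013144 (r = 0.93), for which no name was found. Leaving out the 7 genes themselves, the closest to the others were VDAC1, BCKDHA and ABCD3, all of mitochondria or peroxisomes, for CTSA (r = 0.95, 0.95 and 0.93), the fucosidase FUCA1, DNASE1L2 and the lysosomal nuclease DNASE2 for CTSB (r = 0.95, 0.95 and 0.94), and AS3MT, the catalase gene CAT and the vimentin gene VIM for NEU1 (r = 0.87, 0.85 and 0.84).

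No gene passed with Sertoli, peritubular myoid or germ cell markers. With germ cell markers the 7 genes had r from -0.47 to -0.01 over all boars, but from -0.92 for CTSA to -0.59 for CTSS within Landrace, against -0.36 to 0.59 within Duroc. The 2 boars whose germ cell sum lay farthest from the median were both Duroc, namely Duroc high 4 and Duroc low 4. Without them r over the remaining boars ranged from -0.63 for CTSL to -0.34 for NEU1. The difference between the breeds was not tested.

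**Figure D4:**
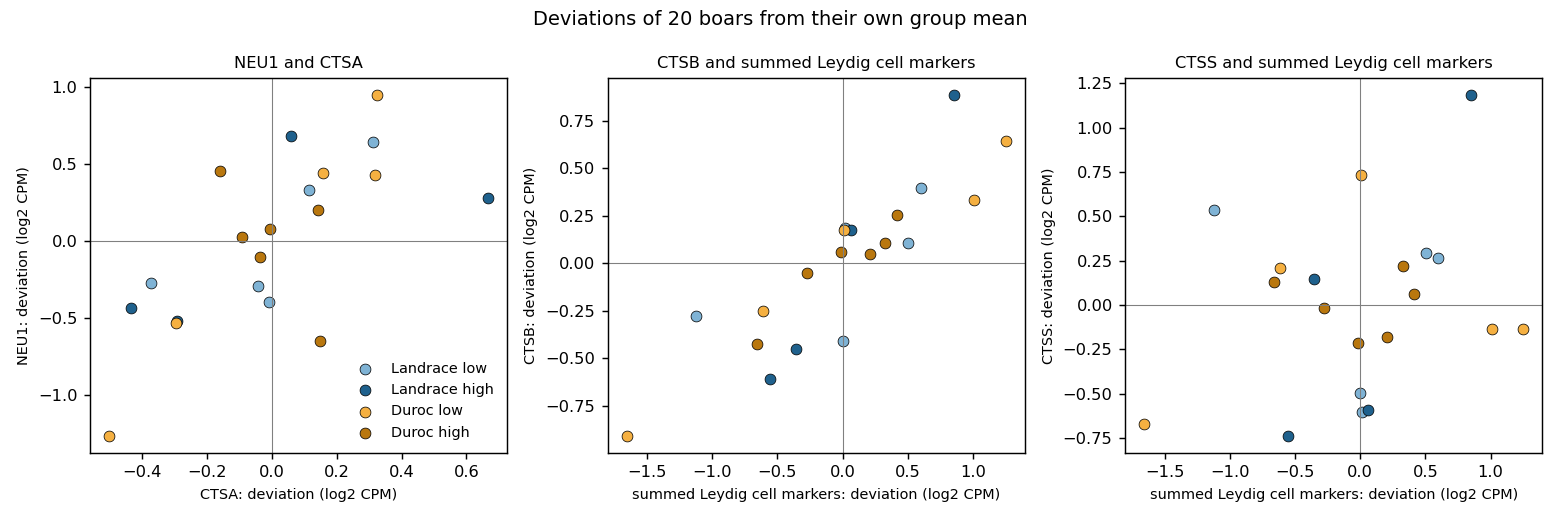
Deviations of the 20 boars from their own group mean (log2 CPM), for NEU1 against CTSA, for CTSB against the summed Leydig cell markers and for CTSS against the same list. Points are boars, coloured by group. The first and second panels rise together (r = 0.69 and 0.88), and the third scatters (r = 0.25).

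The cell markers also differed between the DFI groups. The 5 measured Leydig cell markers summed to 1250 to 4125 CPM in low and 4513 to 11993 CPM in high DFI Landrace, without overlap, and to 793 to 5961 CPM in low and 3343 to 7038 CPM in high DFI Duroc. Of all genes, 16.6% in Landrace and 21.2% in Duroc had an unadjusted p under 0.05 in edgeR, in either direction. Those higher at high DFI were 12.1% and 11.3% of all genes. All 5 Leydig cell markers had an unadjusted p under 0.05 in Landrace and 3 in Duroc. CYP11A1 differed by 1.50 (SE 0.40) and 1.02 (SE 0.38) and LHCGR by 1.21 (SE 0.32) and 1.23 (SE 0.37). Macrophage markers were higher at unadjusted p for 2 of 7 in Landrace and 3 of 8 in Duroc, among them CSF1R at 1.34 (SE 0.44) and 0.86 (SE 0.21). Peritubular myoid markers were higher for 4 of 4 and 1 of 4, endothelial markers for 2 of 3 and 1 of 3, and germ cell markers lower for 5 of 10 and 6 of 10, while no Sertoli cell or T cell marker passed, nor did the 1 blood marker tested (HBB 0.72, SE 0.58, and 0.42, SE 0.35). The part of these shifts in the differences of the 7 genes was not tested.

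Other lysosomal genes from lists of the pathway were counted beside the 7, at an unadjusted p under 0.05 in edgeR, where 12.1% of all genes were higher at high DFI in Landrace and 11.3% in Duroc. Of 95 listed genes 61 were tested, because the rest were not found in the counts or were too low. Of the 61 tested, 25 were higher and 1 lower in Landrace and 26 higher and 1 lower in Duroc, with medians of 0.34 and 0.24 on the log2 scale. After adjustment none passed in either breed, where 0% and 0.0136% of all genes did. The likelihood ratio test called 18 and 8, all higher, and by that test 5.28% and 2.56% of all genes were called. By role, the proteases gave 3 of 7 higher in each breed, with TPP1, the tripeptidyl peptidase, at 0.93 (SE 0.24) and 0.72 (SE 0.26). The glycosidases and lipid hydrolases gave 10 and 7 of 22, with the acid lipase LIPA at 1.12 (SE 0.26) and 0.56 (SE 0.18).

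Membrane proteins of the lysosome gave 8 of 14 in Landrace and 9 of 14 in Duroc, with NPC1, a cholesterol exporter, at 0.65 (SE 0.14) in Landrace, and MCOLN1, a calcium channel, at 0.51 (SE 0.09) in Duroc. The proton pump that acidifies the lysosome gave 2 of 7 tested genes in each breed, of 15 listed, with medians of 0.07 and -0.08. The sorting genes gave 1 of 6 and 2 of 6 higher (12.1% and 11.3% of all genes were), and 1 lower in each breed, GNPTAB in Landrace and SORT1 in Duroc. Their medians were 0.21 and 0.10. The progranulin gene GRN had the largest difference, 0.66 (SE 0.16) and 0.56 (SE 0.14), and the lowest values were -0.27 and -0.13. Of the transcription factors that switch on lysosomal genes, 1 of 2 was higher in Landrace and 2 of 2 in Duroc, and TFE3 differed by 0.78 (SE 0.20) and 0.53 (SE 0.15), and TFEB by 0.29 (SE 0.16) and 0.36 (SE 0.14). Only 2 of 9 listed cystatins were tested, and they gave 0 of 2 and 1 of 2. CSTB, which inhibits the cysteine cathepsins, differed by 0.35 (SE 0.16) and 0.18 (SE 0.08), and NEU3, the plasma membrane sialidase, by 0.01 (SE 0.13) and 0.05 (SE 0.07).

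The genes next to the 7 on the chromosome, within 10 kb in the RefSeq annotation of assembly Sscrofa11.1, were looked at because reads were counted without regard to strand. SLC44A4, the neighbour of NEU1, did not overlap it but followed it, with r = 0.75 over the 20 boars (rank 49 of 14635) and log2 fold changes between high and low DFI of 1.16 (SE 0.35) in Landrace and 1.15 (SE 0.38) in Duroc. FBP2, beside CTSL, had r = 0.58 and differences of 1.31 (SE 0.44) and 1.37 (SE 0.64). FDFT1 beside CTSB had r = 0.60 and differed by 0.17 and 0.04, MORF4L1 beside CTSH had r = 0.49 and differed by -0.04 and -0.18, and HORMAD1 beside CTSS had r = 0.20 and differed by -0.11 and -0.12. Beside CTSA, ZSWIM3 had r = -0.40 and differences of -0.14 and 0.05, and ZSWIM1 had r = -0.27 and differences of 0.31 and -0.06. PLTP and NEURL2 overlap CTSA in that annotation. If the gene models used for counting overlap too, reads in the shared stretch could not be assigned to 1 gene. That was not examined, and neither PLTP nor NEURL2 was analysed here.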

How the data were processed

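RNA from testis tissue was sequenced for 20 boars, each as a library of its own. The authors mapped reads to pig genome build 10.2 with TopHat2 2.0.12 and counted them per Ensembl gene with HTSeq without strand, and the deposited values are these raw counts. The lowest deposited count is 1, and it is not known if zeros were replaced or 1 was added throughout. Normalization was done here with edgeR 4.0.16 (TMM), keeping genes above 1 CPM in at least 5 of 9 Landrace, 6 of 11 Duroc or 10 of 20 boars. Each breed was fitted alone for DFI, as in the study, and all 4 groups together for breed. The main test was edgeR's quasi-likelihood F-test, Benjamini-Hochberg adjusted over all kept genes at 0.05. Likelihood ratio test, DESeq2 1.42.0, RLE size factors, no filter, leaving out each boar and subsets by sample number were alternatives. Covariation used log2(CPM + 0.5) less the 4 group means and 100000 two-sided permutations within groups. Scripts were tested on simulated data.

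The 7 genes and all gene lists (148 genes, 110 found in the counts) were chosen with earlier results of these data known. Besides the 7 genes, the text could name GLB1, CTSD, CTSZ and PSAP, up to 3 genes with the smallest p per list and comparison, neighbours within 10 kb, and the 3 genes closest to CTSA, CTSB, CTSS and NEU1 across boars. CTSD was not analysed here. Gene names came from a table of Ensembl identifiers, and neighbours from RefSeq (Sscrofa11.1), whose coordinates are not printed because the counts use another build.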

Additional observations from a re-analysis of the deposited data

Results flagged for a closer look

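Of 32 sets looked at (the 7 genes and the NEU1 to CTSA ratio in 4 groups each), 2 had a boar far from the others by Dixon's ratio, and chance gives about 1 in 20. CTSL in Landrace high 2 was 28.0 CPM, with the nearest of the 4 high DFI Landrace boars at 8.62 CPM (gap over range 0.924). CTSL in Duroc high 3 was 8.91 CPM, with the nearest of the 6 high DFI Duroc boars at 5.53 CPM (gap over range 0.657). Landrace high 2 was also the highest boar for the other 5 cathepsins, and Duroc high 3 had the lowest NEU1 of its group (10.17 CPM).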

How the results depend on the processing

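With adjusted p under 0.05 the count of the 7 genes called between high and low DFI was 0 in both breeds in the main test. In Landrace it was 7 by the likelihood ratio test and 6 by DESeq2. It was 7 by the likelihood ratio test on the 6 boars from the short run of sample numbers, an alternative chosen after seeing the data. In Duroc it was 4 by the likelihood ratio test and 3 by DESeq2. Over all genes the counts were 0, 767 and 828 in Landrace and 2, 376 and 859 in Duroc for the main test, the likelihood ratio test and DESeq2. DESeq2 also called 1095 genes in place of 720 between breeds at low DFI and 1377 in place of 838 at high DFI. Without a filter on low counts 1 of the 7 genes was called between breeds at high DFI in place of 2.

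Leaving out 1 boar at a time, the median log2 difference in Landrace ranged from 0.77 to 1.42, the interaction median from -0.70 to -0.0070, the genes called between breeds from 1 to 2 and at high DFI from 0 to 2, r of CTSA and NEU1 from 0.59 to 0.77, and the pairs called from 9 to 16 of 21, with 9 without either Landrace high 2 or Duroc low 3. Without the 6 Landrace boars from the short run of sample numbers, r of CTSA and NEU1 was 0.75 with an adjusted permutation p of 0.0707, and 6 pairs were called. No called value changed sign. The cause of these changes was not tested. No paired analysis was possible because the labels give no replicate numbers shared between groups. Depth did not leave any of the 7 genes under 68 counts, and groups of 4 to 6 boars limit the precision.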
